A study of Mus musculus with 2 samples.

Results

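The 10 genes described here encode the machinery that makes mouse microRNAs and lets them act, together with the host transcript of one of the microRNA clusters deleted in the study. They were taken by symbol from the deposited table: Mir17hg, Drosha, Dgcr8, Xpo5, Dicer1, Ago1, Ago2, Tnrc6a, Tnrc6b and Tnrc6c, which are 10 of 16218 named genes. Polyadenylated RNA was sequenced from bone marrow-derived macrophages of C57BL/6J mice, grown for 5 days with 10% serum and 10% L929 supernatant and treated with 10 ng/ml lipopolysaccharide (LPS), a bacterial activator of macrophages, for 3 h. The TKO library came from cells that are mir-106a~363-/- and mir-106b~25-/- and that also carry mir-17~92flox/flox with Lyz2-Cre, and the WT library from Lyz2-Cre cells. Both genotypes thus carry Lyz2-Cre, which is active in myeloid cells and removes the floxed mir-17~92 only where it has acted, while the other clusters are absent from every cell of the TKO mice. The labels give neither the age of the mice nor the number of animals behind a library.

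A microRNA gene is transcribed as a long primary transcript that folds into hairpins. In the nucleus the Microprocessor, made of the nuclease Drosha and its RNA-binding partner Dgcr8, cuts the hairpin out, and exportin-5 (Xpo5) carries it to the cytoplasm. Dicer1 trims it to a short duplex, 1 strand of which is bound by an Argonaute protein. The Argonaute finds messenger RNAs through the seed of the microRNA, its bases 2 to 8, and GW182 proteins (Tnrc6a, Tnrc6b, Tnrc6c) recruit enzymes that shorten the poly(A) tail and repress the message.

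Each genotype had 1 library, with 10836855 counts in TKO and 10764519 in WT, so nothing below has been checked across replicates, and the words higher and lower refer to these libraries alone. In bulk RNA, fewer cells of a type and less RNA per cell cannot be told apart. The 10 macrophage markers, among them Csf1r (30290 counts in TKO and 27207 in WT) and Adgre1 (9812 counts in TKO and 10003 in WT), were all measured, and 0 were 1.5-fold apart. Of 10 fibroblast and stromal markers 9 were measured and 6 were at least 1.5-fold lower in TKO, with a summed count of 1987 in TKO and 4851 in WT. The other measured ones were not 1.5-fold apart: Pdgfra (30 counts in TKO and 32 in WT), Pdgfrb (510 and 478) and Thy1 (39 and 33). Of 12 proliferation markers 2 were at least 1.5-fold lower and the summed count was 21487 in TKO and 25227 in WT. By the looser rule used below, a counting interval that excludes equality, 10 of the 12 were lower in TKO and 0 higher. Among all measured genes that rule gave 20.2% lower and 14.1% higher. The median log2 ratio of TKO over WT for the proliferation markers was −0.38. Of 8 neutrophil markers 3 were measured, with a summed count of 40 in TKO and 45 in WT, and 1 was at least 1.5-fold lower in TKO, S100a9 with 8 counts in TKO and 21 in WT. The neutrophil surface gene Ly6g had 1 count in TKO and 0 in WT. Of 8 lymphocyte markers 2 were measured, with a summed count of 58 in TKO and 85 in WT, and 1 was at least 1.5-fold lower, Lck with 10 counts in TKO and 32 in WT. Of 7 dendritic cell markers 3 were measured, with a summed count of 2135 in TKO and 392 in WT, and 1 was at least 1.5-fold higher, Itgax with 2019 counts in TKO and 291 in WT. The part of these differences in any value below was not tested.

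The 3 deleted clusters hold 15 microRNA genes, all found in RefSeq (GRCm38.p6), whose main strands are 13 distinct mature sequences with 4 seeds. The sequences encoded by mir-17~92 are shown because its host transcript is among the genes described, with the seed in capitals.
mmu-miR-17-5p: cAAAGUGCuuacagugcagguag
mmu-miR-20a-5p: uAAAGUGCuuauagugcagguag
mmu-miR-18a-5p: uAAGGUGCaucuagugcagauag
mmu-miR-19a-3p: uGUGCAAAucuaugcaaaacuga
mmu-miR-19b-3p: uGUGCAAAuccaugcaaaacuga
mmu-miR-92a-3p: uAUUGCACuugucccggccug
The miR-17 family, with seed AAAGUGC, is encoded by 6 of the 15 genes and also holds miR-20b, miR-93, miR-106a and miR-106b. The miR-92 family, with seed AUUGCAC, is encoded by 4 genes and also holds miR-25 and miR-363. The miR-19 family is encoded by 3 genes and the miR-18 family by 2.

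The host transcript Mir17hg (gene 75957) had 16 counts in TKO and 16 in WT, which is 1.48 CPM (counts per 1000000) in TKO, with an exact Poisson interval of 0.844 to 2.40, and 1.49 CPM in WT, with an interval of 0.850 to 2.41. The TKO over WT ratio was 0.993, with a 95% counting interval of 0.465 to 2.12, so a difference of up to about that size was not detectable at this depth. What the entry counts bears on this value. Its deposited length of 2339 bases equals that of the RefSeq gene, chr14:115044390-115046728 on the plus strand in GRCm38.p6, although the coordinates behind the counts are not given in the sources used here. Of the 6 hairpins of mir-17~92, 4 lie wholly upstream of that RefSeq start, and Mir19b-1 reaches 2 bases into it. Mir92-1 is the 1 hairpin that lies wholly inside, and its 80 bases (chr14:115044427-115044506, plus strand) are shown for that reason, with the mature miR-92a-3p in capitals.
Mir92-1: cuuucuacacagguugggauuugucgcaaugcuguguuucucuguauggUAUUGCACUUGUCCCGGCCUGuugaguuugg
Of the 2339 bases of the RefSeq gene, 2222 lie past the last hairpin. GENCODE M21 instead annotates a lincRNA at chr14:115042879-115046727 with 2 exons, the second of which holds all 6 hairpins. If the counts are of the RefSeq gene, they fall almost entirely downstream of the hairpins. As neither the counted model nor the ends of the deletion are given in the sources used here, the Mir17hg count was not used as a check of the deletion.

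**Figure D1:**
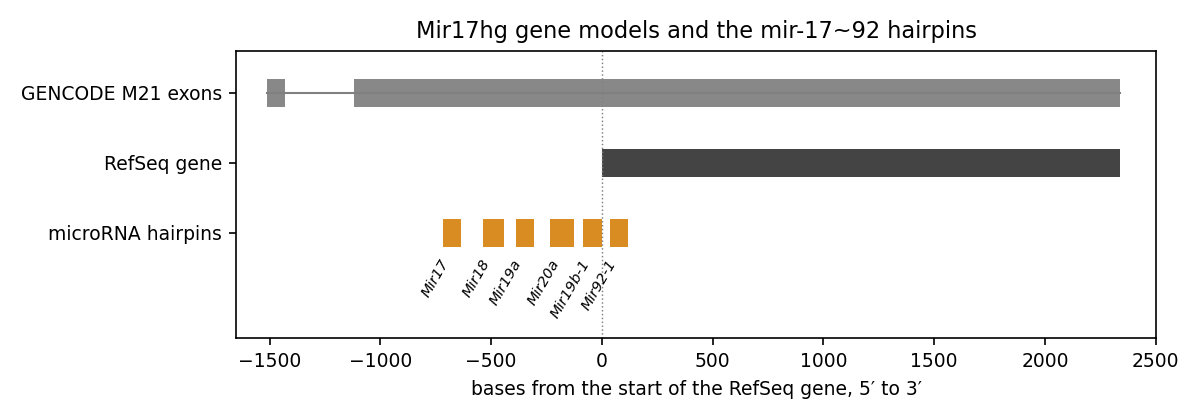
Positions of the GENCODE M21 exons of Mir17hg, the RefSeq gene and the 6 hairpins of mir-17~92, in bases from the start of the RefSeq gene. The hairpins of Mir17, Mir18, Mir19a and Mir20a lie to the left of the RefSeq start, Mir19b-1 ends 2 bases inside it, and Mir92-1 lies within it.

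By point estimate the members differed by less than 1.5-fold between the libraries. Of the 10 genes, 0 stood higher in TKO by 1.5-fold or more and 0 stood lower by as much. Over the 11662 genes whose CPM averaged 1 or more across the libraries, called measured here, those shares were 2.83% and 5.26%, so an absence of calls among 10 genes is near the background. With the looser rule that the 95% counting interval excludes equality, 3 members were higher in TKO (Ago1, Ago2 and Tnrc6c) and 1 lower (Dgcr8), against 14.1% and 20.2% of all measured genes. Among 4503 measured genes with summed counts of 468 to 2947, the range of the protein-coding members, those shares were 17.1% and 22.5%. With the libraries scaled by a trimmed mean of ratios (TMM, edgeR) these shares of all genes were 18.5% higher and 15.9% lower, and with the median-ratio size factors of DESeq2 17.3% higher and 16.8% lower, while the members' counts stayed 3 and 1. Such intervals leave out the variation between cultures, and counts of 3 and 1 among 10 genes are not set apart from these shares. The median log2 ratio of the members was 0.01, and that of all measured genes was −0.04.

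**Figure D2:**
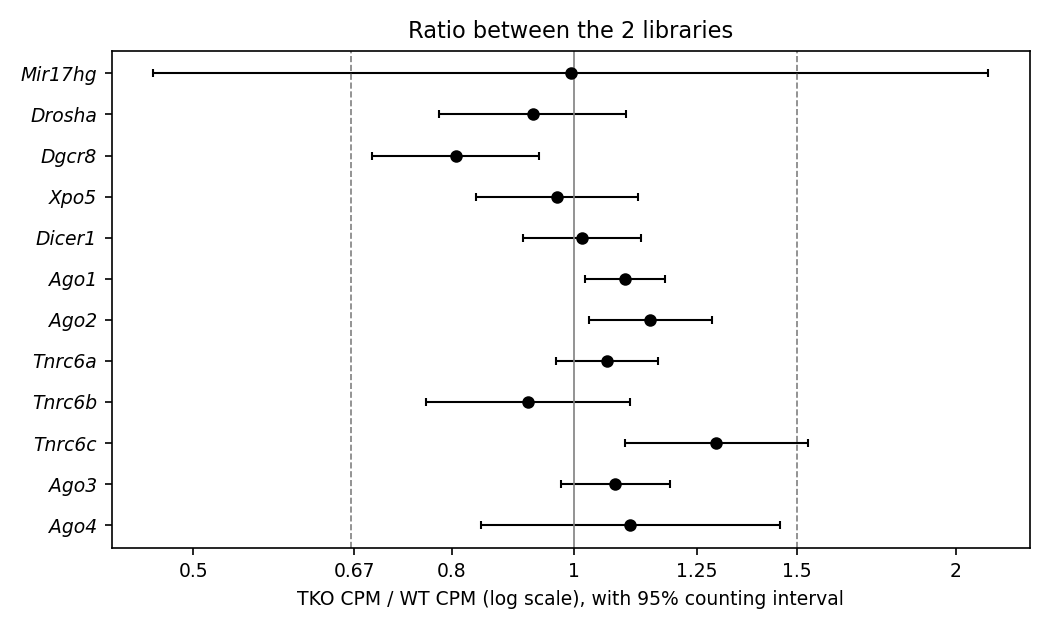
Ratio of TKO CPM to WT CPM on a log axis for the 10 members and, at the bottom, for Ago3 and Ago4, with bars for the 95% counting interval of 1 library per genotype. Dashed lines mark 1.5-fold in either direction, and every point lies between them, with Tnrc6c farthest higher (1.29) and Dgcr8 farthest lower (0.806).

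The Microprocessor genes were both lower in TKO by point estimate, Dgcr8 beyond counting error. Drosha, the nuclease (chr15:12824815-12935291, plus strand, GENCODE M21), had 267 counts in TKO and 286 in WT, a ratio of 0.927 (0.782 to 1.10). Dgcr8 (chr16:18253948-18289246, minus strand), which binds double-stranded RNA and whose own messenger RNA contains hairpins that the Microprocessor can cut, had 314 counts in TKO and 387 in WT. It was 1.24-fold lower in TKO (1.07 to 1.44), with deposited values of 6.80 FPKM in TKO and 8.43 FPKM in WT. In the authors' deposited table its p-value was 0.00437 and its adjusted value 0.0268, from a comparison of these 2 libraries and not of the conditions. The Dgcr8 ratio was 0.869 times the Drosha ratio, with a counting interval of 0.691 to 1.09, so the pair did not differ from each other beyond counting error. In GENCODE M21, 825 of 7696 exon bases of Dgcr8 are also exon bases of Trmt2a on the opposite strand. Trmt2a had 231 counts in TKO and 257 in WT, and without a stated strand setting reads of the shared bases cannot be told apart.

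Export and dicing were close to equality. Xpo5 (chr17:46202782-46243598, plus strand) had 364 counts in TKO and 373 in WT, a ratio of 0.969 (0.837 to 1.12). Dicer1 (chr12:104687742-104751952, minus strand) had 698 counts in TKO and 684 in WT, a ratio of 1.01 (0.911 to 1.13). Both intervals lie within 1.5-fold of equality, but they cover counting error only. The Dicer1 ratio was 1.26 times the Dgcr8 ratio (1.04 to 1.52).

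Both Argonaute genes of the set were slightly higher in TKO. Ago1 (chr4:126435012-126468583, minus strand), an Argonaute that represses without cutting most targets, had 1546 counts in TKO and 1401 in WT, a ratio of 1.10 (1.02 to 1.18). Ago2 (chr15:73095844-73184935, minus strand), the mammalian Argonaute that can slice a fully paired target, had 684 counts in TKO and 592 in WT, a ratio of 1.15 (1.03 to 1.28). The Ago2 ratio was 1.05 times that of Ago1 (0.916 to 1.197), with no difference beyond counting error. In the authors' deposited table their adjusted values were 0.0651 for Ago1 and 0.0701 for Ago2. The other Argonaute genes, from a wider pathway list, lay at similar ratios: Ago3 had 833 counts in TKO and 768 in WT (1.08, 0.976 to 1.19), and Ago4 had 117 counts in TKO and 105 in WT (1.11, 0.843 to 1.45). Summed over the 4 Argonaute genes the count was 3180 in TKO and 2866 in WT, a ratio of 1.10 (1.05 to 1.16). Of the exon bases of Ago2, 219 of 14031 are shared with Chrac1 on the opposite strand, which had 267 counts in TKO and 261 in WT.

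The 3 GW182 genes had ratios on both sides of equality, with Tnrc6c higher in TKO beyond counting error. Tnrc6c (chr11:117654289-117763439, plus strand) had 335 counts in TKO and 257 in WT, a ratio of 1.29 (1.10 to 1.53), the farthest from equality of the 10 members in these libraries. In the authors' deposited table its p-value was 0.00177 and its adjusted value 0.0125. Tnrc6a (chr7:123123885-123195296, plus strand), the founding member of the family, had 948 counts in TKO and 888 in WT, a ratio of 1.06 (0.967 to 1.16). Tnrc6b (chr15:80711313-80941085, plus strand) had 225 counts in TKO and 243 in WT, a ratio of 0.920 (0.764 to 1.11). Among 6 pairs of members compared, without adjustment of the intervals, the Tnrc6c ratio was 1.41 times that of Tnrc6b (1.10 to 1.81) and 1.22 times that of Tnrc6a (1.01 to 1.48). Tnrc6a and Tnrc6b did not differ beyond counting error (1.15, 0.936 to 1.42).

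Levels can be compared between genes only per length, for which the deposited FPKM was used. Ago1 was the highest of the 10, at 19.44 FPKM in TKO and 17.73 FPKM in WT, which put it above 70.8% of measured genes in TKO and 68.3% in WT. It was followed by Tnrc6a, at 10.18 FPKM in TKO and 9.59 FPKM in WT. Xpo5 had 9.0 FPKM in TKO and 9.28 FPKM in WT, and its counting interval overlapped that of Tnrc6a in both libraries. Below these came Ago2, Dgcr8, Dicer1 and Drosha, between 5.34 and 7.77 FPKM in TKO and between 5.75 and 8.43 FPKM in WT. The order of Ago2 and Dgcr8 was turned between the libraries. In TKO Ago2 stood at 7.77 FPKM (7.20 to 8.37) and Dgcr8 at 6.80 FPKM (6.07 to 7.60), with overlapping intervals, whereas in WT Ago2 stood at 6.77 FPKM (6.24 to 7.34) and Dgcr8 at 8.43 FPKM (7.61 to 9.31). Dicer1 (6.46 FPKM in TKO and 6.37 FPKM in WT) and Drosha (5.34 FPKM in TKO and 5.75 FPKM in WT) had overlapping intervals in both libraries. Tnrc6c (3.49 FPKM in TKO and 2.70 FPKM in WT), Tnrc6b (1.19 FPKM in TKO and 1.29 FPKM in WT) and Mir17hg (0.63 FPKM in each library) were each separated from the gene above beyond counting error. The median of all measured genes was 8.01 FPKM in TKO and 8.34 FPKM in WT.

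**Figure D3:**
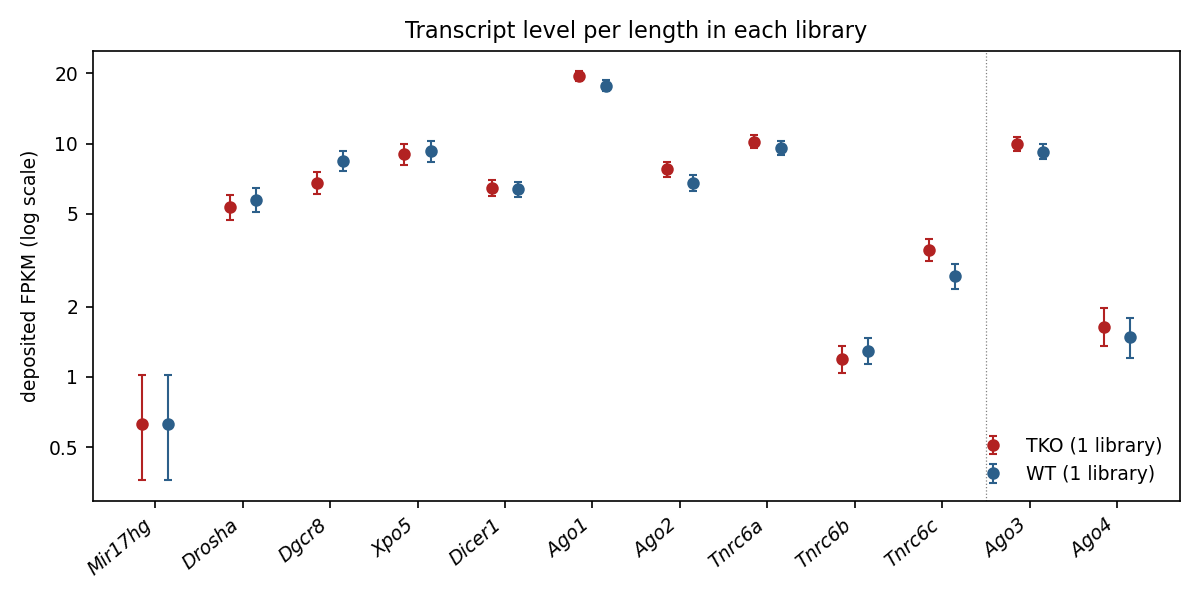
Deposited FPKM on a log axis of the 10 members and, right of the dotted line, of Ago3 and Ago4, with TKO in red left of WT in blue and bars for the exact Poisson counting interval of 1 library. Ago1 is highest (19.44 in TKO and 17.73 in WT) and Mir17hg lowest (0.63 in each).

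Ago1 and Tnrc6a had the largest share of the FPKM of their families in both libraries. Ago1 made up 50.1% of the summed Argonaute FPKM in TKO and 50.3% in WT, Ago3 25.6% in TKO and 26.2% in WT, Ago2 20.03% in TKO and 19.2% in WT, and Ago4 4.23% in TKO and 4.202% in WT. The slicing Argonaute, Ago2, was below Ago1 and Ago3 by transcript level in both libraries. Among GW182 genes, Tnrc6a made up 68.5% of the family FPKM in TKO and 70.6% in WT. Tnrc6c made up 23.5% in TKO and 19.9% in WT, and Tnrc6b 8.01% in TKO and 9.499% in WT. The family sums were 38.8 FPKM in TKO and 35.22 FPKM in WT for the Argonautes, and 14.86 FPKM in TKO and 13.58 FPKM in WT for the GW182 genes. These shares are of messenger RNA and not of protein.

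The 3′ UTRs of the members were read for matches to the deleted seeds, since a message with such a site can be a target of the deleted microRNAs. The motifs were GCACTTT (miR-17 family), GCACCTT (miR-18 family), TTTGCAC (miR-19 family) and GTGCAAT (miR-92 family), searched on the transcript strand of the longest annotated 3′ UTR in GENCODE M21. The miR-17 and miR-19 family motifs overlap where a UTR reads TTTGCACTTT. Of 9 protein-coding members 7 had at least 1 match, and 19 matches were found in all, of which 4 were followed by an A. Over all 20848 genes with a 3′ UTR, whose median length was 975 bases, 29.1% had at least 1 match. The members' UTRs ran from 169 to 11609 bases, so the count of 7 is not set against that share at like length. Drosha (169 bases of 3′ UTR) and Xpo5 (1327 bases) had 0. Sites of the miR-92 family were found in 0 of the 9.

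The sites of the 4 members that differed beyond counting error are shown, with the match in capitals and 8 bases on each side.
Tnrc6c, miR-17 family, chr11:117761133-117761155, plus strand: catgaaggGCACTTTtcagattg
Tnrc6c, miR-19 family, chr11:117761788-117761810, plus strand: cttctaacTTTGCACtgaggtgt
Ago1, miR-17 family, chr4:126438522-126438544, minus strand: tgacatttGCACTTTcagacgtg
Ago1, miR-19 family, chr4:126438525-126438547, minus strand: cattgacaTTTGCACtttcagac
Ago1, miR-18 family, chr4:126438861-126438883, minus strand: taccccatGCACCTTttccctga
Ago2, miR-17 family, chr15:73096827-73096849, minus strand: gagctgttGCACTTTctctgtaa
Ago2, miR-19 family, chr15:73096105-73096127, minus strand: ttaaatagTTTGCACtatttttg
Ago2, miR-18 family, chr15:73104927-73104949, minus strand: ggcaagtgGCACCTTctcaaact
Dgcr8, miR-19 family, chr16:18254777-18254799, minus strand: cagagattTTTGCACaaccaagc
The miR-17 and miR-19 matches of Ago1 overlap, so they are not independent sites. The single match of Dgcr8 is followed by an A, and none of the matches in Tnrc6c, Ago1 and Ago2 is.

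Matches and ratios of the 9 members are given side by side, with no test of a relation. Drosha and Xpo5, with 0 matches, had ratios of 0.927 and 0.969, both with intervals that include equality. Tnrc6b had the most matches, 6 in 11609 bases with 3 followed by an A, and its ratio was 0.920, while Tnrc6c had 2 in 2588 bases and a ratio of 1.29. Tnrc6a also had 2, in 2345 bases, with a ratio of 1.06, and Dicer1 had 2 in 3851 bases with a ratio of 1.01. Ago1 had 3 in 4491 bases and Ago2 3 in 11064 bases, with ratios of 1.10 and 1.15. The 1 member with a ratio below equality beyond counting error, Dgcr8, had 1 match in 1574 bases and a ratio of 0.806. Of the 9 ratios 4 had intervals that exclude equality, and that of Xpo5 moved just above 1 with TMM scaling. Matches followed by an A were held by Dgcr8 (1) and Tnrc6b (3) alone, with ratios of 0.806 and 0.920. An order of the ratios by number of matches is not read from these values. Long UTRs hold such motifs often. Of the 3′ UTRs within 20% of the length of that of Tnrc6c, 20.97% held GCACTTT, 14.5% GCACCTT, 19.1% TTTGCAC and 11.7% GTGCAAT. At the length of Ago1 these shares were 33.6%, 22.5%, 31.1% and 18.5%, and at that of Dgcr8 13.7%, 8.01%, 13.3% and 6.68%. For Ago2, with 76 UTRs in that range, its own included, they were 63.2%, 42.1%, 61.8% and 36.8%. At least as many matches in all as in the member were held by 17.8% of UTRs of similar length for Tnrc6c, 14.1% for Ago1, 53.9% for Ago2, 35.6% for Dgcr8 and 9.23% for Tnrc6b. Each of these shares counts the member's own UTR. A match is a description of the sequence and no evidence of binding. The annotated UTR can be longer than the one used in these cells, which was not measured. The counted model can differ too, as the GENCODE transcript of Ago2 has 13800 bases and its deposited gene length is 8031 bases. The miR-17 and miR-19 matches of Ago2 start at bases 10067 and 10789 of its 11064-base UTR, which is beyond that deposited length.

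In 5 further lists of the wider pathway 104 genes were measured. Of these 0 stood higher in TKO by 1.5-fold or more and 3 stood lower by as much, against 2.83% and 5.26% of all measured genes. Among the 4503 genes with summed counts of 468 to 2947, 4.69% were apart in either direction. The counts of 0 and 3 are not read as a trait of the pathway. The counting interval excluded equality for 15 higher and 24 lower genes. Those shares were 14.1% and 20.2% of all measured genes, and 17.1% and 22.5% of the 4503. This split depended on scaling, with 20 higher and 18 lower under TMM and 18 higher and 20 lower under median-ratio size factors, so no direction is read from it. Among 17 measured partners of Argonaute and Dicer the median log2 ratio was 0.04, with 0 genes apart by 1.5-fold. Hspa8, a chaperone that helps load Argonautes and the most abundant of the list, had 14550 counts in TKO and 12950 in WT, a ratio of 1.12 (1.09 to 1.14), the highest of the list by log2 ratio. Tarbp2, the double-stranded RNA-binding partner of Dicer, was the lowest, with 162 counts in TKO and 210 in WT, 1.31-fold lower (1.06 to 1.61).

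Among 20 cofactors of the Microprocessor and other nuclear RNA factors the median was −0.02, and 0 were apart by 1.5-fold. The helicase gene Ddx5, the most abundant, had 14618 counts in TKO and 13842 in WT, a ratio of 1.05 (1.02 to 1.07). Safb, a nuclear scaffold protein gene, was highest by ratio, with 1064 counts in TKO and 799 in WT (1.32, 1.21 to 1.45). Erh, whose product binds Dgcr8, was lowest, with 485 counts in TKO and 605 in WT, 1.26-fold lower (1.11 to 1.42).

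Of 11 measured genes of precursor tailing and decay 0 were apart by 1.5-fold, and the median was −0.12. Tut4, a terminal uridylyl transferase gene, was highest by ratio, with 718 counts in TKO and 577 in WT (1.24, 1.11 to 1.38). The poly(A) ribonuclease gene Parn was lowest, with 134 counts in TKO and 167 in WT (1.255-fold lower, 0.994 to 1.59), an interval that includes equality. The most abundant gene of the list, the poly(A) polymerase gene Tent4a, had 2094 counts in TKO and 2459 in WT (1.18-fold lower, 1.11 to 1.254).

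The list of GW182 effectors, with 31 genes, held the CCR4-NOT and PAN2-PAN3 deadenylases, decapping factors and related genes such as Pabpc1, Tob2 and Btg2. Its median was −0.04, with 0 genes apart by 1.5-fold. Ddx6, a helicase that CCR4-NOT brings to repressed messages, was highest by log2 ratio, with 3391 counts in TKO and 2600 in WT (1.30, 1.23 to 1.36). Edc3, an enhancer of decapping, was lowest, with 160 counts in TKO and 224 in WT (1.41-fold lower, 1.15 to 1.74). Pabpc1, the poly(A)-binding protein gene and the most abundant of the list, had 15416 counts in TKO and 17077 in WT (1.12-fold lower, 1.09 to 1.14).

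Transcripts that host microRNA genes held the 3 genes apart by 1.5-fold, all lower in TKO, of 25 measured. Of all measured genes 5.26% were lower by as much, and a count of 3 does not set the list apart from that share. Tln2, a talin gene, had 22 counts in TKO and 57 in WT (2.61-fold lower, 1.57 to 4.48). Ctdspl, a small phosphatase gene, had 26 counts in TKO and 58 in WT (2.25-fold lower, 1.39 to 3.72). Copz2, a coatomer subunit gene, had 29 counts in TKO and 54 in WT (1.87-fold lower, 1.17 to 3.05). Mest, named after its value was seen, had 19 counts in TKO and 33 in WT (1.75-fold lower), with an interval of 0.966 to 3.25. The 3 genes apart were of low abundance, and the fibroblast and stromal markers were lower in the same library, as given above; their part in these values was not tested. Mcm7, the replication helicase gene whose introns hold mir-106b~25, had 496 counts in TKO and 608 in WT (1.23-fold lower, 1.09 to 1.39). The TKO cells lack mir-106b~25, so this gene itself carries the deletion in TKO alone. The proliferation markers given above were lower in the same library. The parts of the deletion and of proliferation in the Mcm7 value cannot be told apart in this design. Mir99ahg was highest by ratio, with 22 counts in TKO and 15 in WT (1.46, 0.722 to 3.02), not detectably different at this depth. Huwe1, a ubiquitin ligase gene and the most abundant host measured, had 4271 counts in TKO and 3673 in WT (1.16, 1.10 to 1.21). The median of the list was −0.03.

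**Figure D4:**
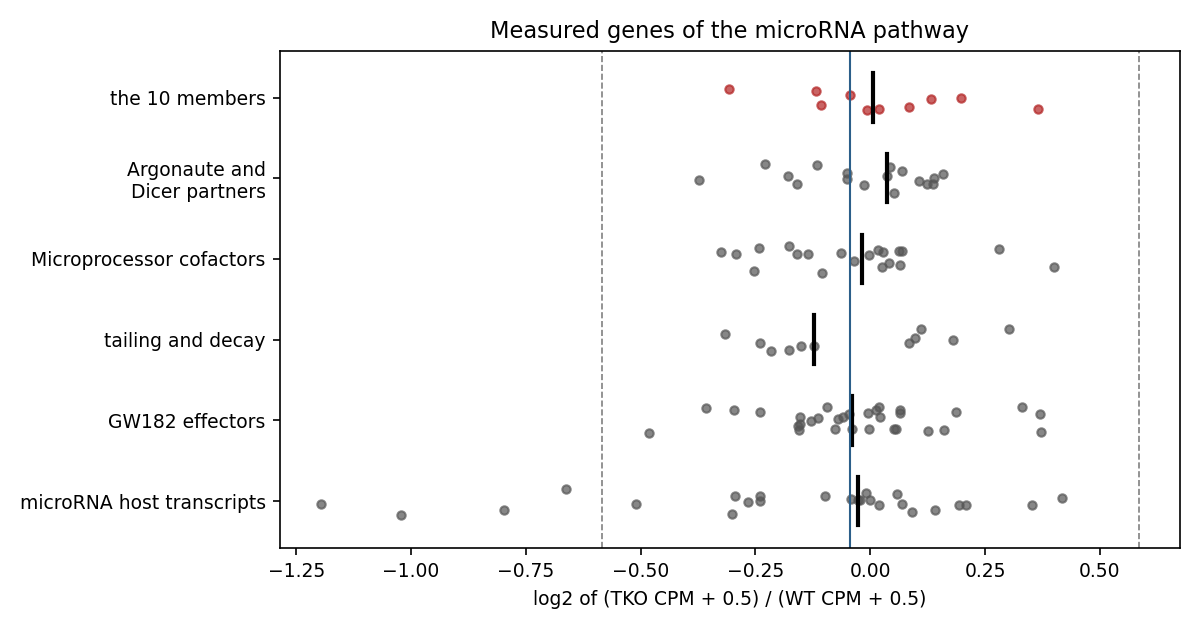
Log2 of (TKO CPM + 0.5) over (WT CPM + 0.5) for each measured gene of the set (red) and of 5 pathway lists (grey), with black bars for list medians, a blue line for the median of all measured genes (−0.04) and dashed lines at 1.5-fold. The 4 points beyond the dashed lines are host transcripts lower in TKO: Tln2, Ctdspl, Copz2 and Mest, the last with 19 counts in TKO and 33 in WT and a counting interval that includes equality.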

How the data were processed

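The deposited table holds 1 row per gene for 1 TKO and 1 WT library. Per the submitters' processing notes, RSEM 1.2.12, HISAT2 2.0.4, Bowtie2 2.2.5 and mm10 were used, with no role stated for each. Strand setting and annotation are not given in the sources used here. Estimated counts deposited by the authors were rounded (79.4% were whole in TKO and 79.2% in WT), and 1 entry with no symbol (1 count, 9.23e-06% of TKO and 9.29e-06% of WT) was left out. The deposited FPKM values, in which 0.01 stands for 0, are per length and depth. The deposited log2 ratio is of TKO over WT FPKM, per the file headers. The deposited p-value and adjusted value, a score that reaches 1.04, come from a test the sources do not name.

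CPM used total counts. Log2 ratios added 0.5 CPM to both sides, and genes averaging 1 CPM or more were called measured. Ratios have exact conditional binomial (Clopper-Pearson) 95% intervals and levels exact Poisson ones. These cover counting error only, since PCR reads without molecular identifiers are not independent molecules. A gene was apart at 1.5-fold when its interval also excluded 1. No test was possible. The members, lists and rules were chosen with earlier results of these data known. Named pathway genes were those apart, the most abundant, and the highest and lowest log2 ratio of each list, with Mcm7. 3′ UTRs and gene positions came from GENCODE M21 (GRCm38, the assembly of mm10). Alternatives used TMM (edgeR 4.0.16), median-ratio size factors (DESeq2 1.42.0), other pseudocounts and abundance limits, unrounded counts and FPKM. Python 3.11.15 and SciPy 1.17.1 were used, and the interval code was tested on simulated data.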

Additional observations from a re-analysis of the deposited data

How the results depend on the processing

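Among the members, the counts of 3 higher and 1 lower by counting interval were the same with TMM and with median-ratio size factors. The other alternatives could not test these counts. The interval uses rounded counts and no pseudocount, the abundance limits only leave genes out, and FPKM gives no interval. The count of 0 members apart by 1.5-fold was the same with both scalings, the other pseudocounts and FPKM. Log2 ratios ran from 0.32 to 0.41 for Tnrc6c, 0.13 to 0.18 for Ago1, 0.19 to 0.24 for Ago2 and −0.31 to −0.26 for Dgcr8. The signs of Mir17hg and Xpo5, both near 0, turned under some scalings, and Mir17hg was not measured with the limit at 10 CPM. The median of the members ran from 0.0052 to 0.048. The median of all measured genes was 0.0031 with TMM, −0.0094 with median-ratio size factors, −0.034 with no filter and −0.029 at a mean of at least 10 CPM, a limit that also left 0 pathway genes 1.5-fold lower because the 3 host transcripts fall below it. The medians of the Microprocessor cofactor, GW182 effector and host lists turned sign within 0.05 of 0, so their signs are not read. Counting sites only when followed by an A left 4 sites in 2 members. Shares of family level were the same with TPM, but TPM was made from the same counts and deposited lengths, so this is no separate check. Other gene lengths were not tried. No paired analysis was possible because each genotype has 1 library, and leaving out a library leaves no comparison. Depth limits Mir17hg and the low-abundance hosts most.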
